A study of Mus musculus with 17 samples.

Results

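Brain tumors of the Myc subtype from a mouse model of rhabdoid tumor were compared with healthy mouse brain. Polyadenylated RNA was sequenced from 4 tumors titled Myc tumor and from 3 brains titled healthy brain, which are 7 of the 17 libraries of the series, and every gene was considered. The tumors carry the genotype SMARCB1 -/- and the brains are wild type, and both come from the strain C57BL/6J. The tumors are named here Myc 1 to Myc 4 and the brains brain 1 to brain 3, as the titles number them. The 14 tumors of the series are described as separate tumors and the brains as biological replicates. The promoter or Cre line that removes Smarcb1, the age of the mice and the part of the brain that was sampled are not given in the sources used here. The other 10 libraries (3 CNS tumors of the SHH subtype, 4 extracranial tumors and 3 syngeneic grafts in the flank) entered the fit that estimates the spread of each gene, and the SHH and extracranial tumors served as comparison groups.

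Rhabdoid tumors are aggressive cancers of early childhood that arise in the brain, the kidney and soft tissue. Their hallmark is the loss of SMARCB1, which belongs to the core of SWI/SNF complexes. These complexes use ATP to move nucleosomes and keep enhancers open, and rhabdoid tumors carry few other mutations. In the brain they are called atypical teratoid rhabdoid tumors, and they are sorted by expression and DNA methylation into subgroups that include an SHH group, with active Hedgehog and Notch genes, and a MYC group. Myc is a transcription factor that pairs with Max, binds E-box sequences near gene starts and is best known for raising genes of ribosome production, nucleotide synthesis and the cell cycle.

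The brain libraries held 127086670, 103095016 and 130835711 counts and the tumor libraries 18685672, 20594147, 114338058 and 70403211, so Myc 1 and Myc 2 were the shallowest. Levels are in CPM, counts divided by the TMM-scaled library size and multiplied to a common total, and are listed in the order of the library numbers. Smarcb1 (chromosome 10 from 75896769 to 75921617 in GRCm38, minus strand) stood at 132, 121 and 119 CPM in the brains and 14.8, 8.86, 7.87 and 10.3 CPM in the tumors (log2 fold change -3.57 ± 0.65, adjusted p = 0.000532, edgeR quasi-likelihood test with Benjamini-Hochberg adjustment). Changes are given as log2 fold changes, tumors minus brains, with their standard errors. Every tumor lay far below every brain, as the genotype on the labels says. These are counts over all exons, whichever part of the gene was removed. Brain 1 also held transcripts of other tissues. Its summed level of 6 pituitary genes was 1372 CPM against 0.903 and 0.923 in the other brains, and of 12 skeletal muscle genes 372 CPM against 32.4 and 62.7. Myc 1 held 193 CPM of the pituitary genes against 0.417 to 1.40 in the other tumors. The brains held 1315 ± 321 CPM (mean ± SD, n = 3) of Dcx, a microtubule protein of migrating neurons, and their age is not given. In bulk tissue fewer cells of a type and less RNA per cell cannot be told apart.

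Of 21494 genes tested, 11216 (52.2%) differed between Myc tumors and brain at an edgeR adjusted p under 0.05. There were 5445 genes higher (25.3%) and 5771 lower (26.8%) in the tumors, and 2855 and 3764 of them differed by at least 4-fold. Any list of genes is therefore read against these shares and against the median log2 fold change of all genes, -0.01. The first principal component of the 7 libraries held 71.3% of the variance and separated the groups. The tumors were less alike than the brains: Pearson's r between libraries, taken over genes (not replicates) on log2 CPM, was 0.899 to 0.929 between tumors and 0.961 to 0.988 between brains. The median SD of log2 CPM was 0.66 among tumors and 0.32 among brains.

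**Figure D1:**
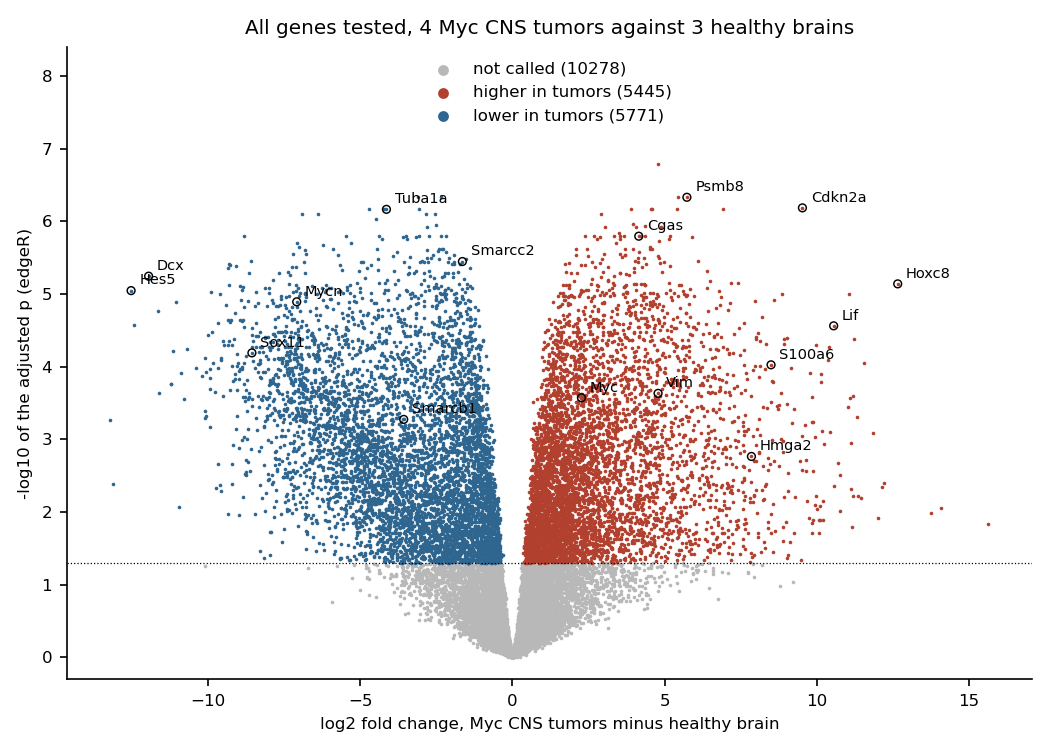
Each point is 1 of the 21494 genes tested, by its log2 fold change (x axis, Myc CNS tumors minus healthy brain) and the -log10 of its edgeR adjusted p (y axis), with the dotted line at 0.05. The 5445 genes called higher are red and the 5771 called lower are blue, and labelled genes include Cdkn2a and Hoxc8 on the right and Dcx and Mycn on the left.

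The genes with the largest increases were of several kinds. Lif, a cytokine of the interleukin-6 family, stood at 0.349, 0.281 and 0.183 CPM in the brains and 509.8, 568, 245 and 321 CPM in the tumors (log2 fold change 10.55 ± 1.29, adjusted p = 2.74e-05). Every tumor was far above every brain. Hoxc8, a homeobox gene of the trunk, was at 0.00794, 0.00971 and 0 CPM in the brains and 13.3, 29.05, 28.1 and 128 CPM in the tumors (log2 fold change 12.66 ± 1.26, adjusted p = 7.25e-06). Fosl1, an AP-1 transcription factor, rose by 10.4 ± 1.4, Ereg, a ligand of the EGF receptor, by 10.22 ± 2.08, and S100a5, a calcium-binding protein, by 11.31 ± 2.04 on the log2 scale. Others varied widely from tumor to tumor. Gata4, a transcription factor of heart and endoderm, had 2.24, 41.7, 0.698 and 209.5 CPM, with the highest level in Myc 4 and the lowest in Myc 3 (log2 fold change 12.21 ± 2.89, adjusted p = 0.00403). Btn1a1, a butyrophilin, had 65.8, 57.5, 44.6 and 1526 CPM and the chemokine gene Ccl5 25.04, 63.1, 2.52 and 531 CPM, again with Myc 4 at the top. Psg22, a pregnancy-specific glycoprotein gene with near-identical copies in the genome, had no counts in any brain and 1.37, 245, 0.0611 and 158 CPM in the tumors. Its level in the tumors thus rested on Myc 2 and Myc 4.

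Among the 15 genes with the largest decreases, Dcx, a microtubule protein of young neurons, fell from 972, 1607 and 1367 CPM in the brains to 0.164, 0, 0.410 and 0.583 CPM in the tumors (log2 fold change -11.95 ± 1.15, adjusted p = 5.68e-06). No tumor reached 1 CPM. Hes5, a Notch target of neural progenitors, was at 6.38, 14.3 and 14.6 CPM in the brains and had no count in any tumor, at least 859.4-fold lower by a floor of 3 counts over the tumors. Otp and Tfap2d, transcription factors of the hypothalamus and of the midbrain and retina, had no count in any tumor either, but they differed widely among the brains, at 40.4, 14.4 and 1.69 and 1.03, 16.96 and 35.03 CPM. Dmrtb1, a transcription factor of the DM domain family, was at 13.7, 9.99 and 9.48 CPM in the brains and had no count in any tumor. Neurod6 (-11.06 ± 1.02), a factor of cortical neurons, Nhlh2 (-11.62 ± 1.51), a neuronal helix-loop-helix factor, Cbln4 (-10.11 ± 1.31), a synaptic organizer, Glra2 (-9.88 ± 1.24), a glycine receptor subunit, and Trim67 (-10.68 ± 1.45), a ubiquitin ligase of the nervous system, were also among them.

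Myc itself (chromosome 15 from 61985391 to 61990374 in GRCm38) stood at 20.4, 28.2 and 30.6 CPM in the brains and 133, 165, 97.3 and 113 CPM in the tumors (log2 fold change 2.27 ± 0.38, adjusted p = 0.000268). The lowest tumor, Myc 3, was above the highest brain. Its paralogs went the other way. Mycn, the form used by neural progenitors, was at 29.1, 56.4 and 47.2 CPM in the brains and 0.273, 0.156, 0.288 and 0.523 CPM in the tumors (log2 fold change -7.08 ± 0.78, adjusted p = 1.28e-05). Mycl fell from 96.9, 93.8 and 87.7 to 0.711, 3.55, 2.26 and 1.41 CPM (log2 fold change -5.55 ± 0.58, adjusted p = 9.54e-06). Every tumor was thus above every brain in Myc and below every brain in Mycn and Mycl. Of the 12 genes of the network around Myc, which includes its partner Max and the Mxd antagonists, 2 were higher (Myc and Max) and 2 lower (Mycn and Mycl), with a median of 0.18. The call of Max was lost without brain 3 (adjusted p = 0.0513).

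Of 18 textbook target genes of Myc, 8 were higher and 0 lower (median log2 fold change 0.94, against -0.01 for all genes). Ncl and Npm1, abundant proteins of the nucleolus, stood at 420.1, 475 and 510.2 and 373, 396 and 381 CPM in the brains and at 816, 1117, 897 and 926 and 913, 1266, 1042 and 1019 CPM in the tumors, and the groups did not overlap. They rose by 1.0 ± 0.17 and 1.47 ± 0.26. Cad, the enzyme that starts pyrimidine synthesis, rose by 1.65 ± 0.34, E2f1, a factor of the S phase, by 2.22 ± 0.31, and the chaperonin gene Hspe1 by 1.11 ± 0.18. Of the ribosome biogenesis genes 26 of 37 were higher and 1 lower (median 0.84). Rrs1, a regulator of ribosome assembly, stood at 18.9, 17.4 and 21.5 CPM in the brains and 68.3, 58.8, 63.1 and 80.2 CPM in the tumors (log2 fold change 1.81 ± 0.2, adjusted p = 1.35e-05). Utp4 (1.84 ± 0.21) and Utp20 (1.53 ± 0.21), parts of the machine that processes the small subunit's RNA, Nhp2 (1.79 ± 0.22), a protein of H/ACA particles, and the helicase gene Ddx18 (1.56 ± 0.19) rose as well. The 1 gene that fell was Rrn3, an initiation factor of RNA polymerase I, a call that was lost without any 1 library other than Myc 3.

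The promoters of these genes can be read for the E-box. RefSeq windows of 300 bases were searched (250 before to 50 after each start, GRCm38.p6), and a gene counted if any of its windows held a match. CACGTG occurred in 8.09% of all 27025 genes with a window and in 10.5% of the 14067 tested genes with a window. Of the latter it occurred in 12.1% of those higher and 9.56% of those lower. It also occurred in 9 of 33 ribosome biogenesis genes with a window (27.3%), whether called or not. Rrn3, which was called lower, is among them. A match of letters is a description and not a binding site. Nop2, an RNA methyltransferase, and Imp4, a protein of small subunit processing, are shown because they had the smallest adjusted p among the called ribosome biogenesis genes whose E-box lies before the start. They were picked after their windows had been searched. The 250 bases before each start follow, 5′ to 3′ on the gene's strand, with the E-box in capitals.
Nop2: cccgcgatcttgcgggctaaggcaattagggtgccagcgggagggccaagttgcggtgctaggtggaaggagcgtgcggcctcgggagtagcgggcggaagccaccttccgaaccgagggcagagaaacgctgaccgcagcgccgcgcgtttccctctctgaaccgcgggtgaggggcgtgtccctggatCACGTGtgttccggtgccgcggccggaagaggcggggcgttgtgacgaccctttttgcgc
Imp4: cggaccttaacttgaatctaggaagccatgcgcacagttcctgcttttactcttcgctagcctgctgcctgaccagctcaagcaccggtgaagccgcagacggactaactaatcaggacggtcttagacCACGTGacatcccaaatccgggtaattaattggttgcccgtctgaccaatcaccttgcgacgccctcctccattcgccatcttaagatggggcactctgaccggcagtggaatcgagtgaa
The Nop2 window is chr6:125131633-125131882 and its E-box begins 60 bases before the start. The Imp4 window is chr1:34439579-34439828, with the E-box 121 bases before the start. Nop2 stood at 32.1, 36.8 and 40.6 CPM in the brains and 90.8, 86.2, 117 and 76.2 CPM in the tumors (log2 fold change 1.34 ± 0.23, adjusted p = 0.00037). Imp4 was at 34.6, 37.8 and 37.3 and 68.7, 79.9, 60.5 and 80.3 CPM (log2 fold change 0.98 ± 0.2, adjusted p = 0.00102). The lowest tumor was above the highest brain for both.

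Nucleotide synthesis followed, with 15 of 22 genes higher and 2 lower (median 1.12). Shmt1 and Shmt2, which supply one-carbon units, rose by 2.72 ± 0.52 and 1.76 ± 0.25. The purine synthesis genes Ppat, Gart and Paics rose by 1.44 ± 0.25, 1.44 ± 0.24 and 1.07 ± 0.18, and the thymidine kinase gene Tk1 by 2.65 ± 0.44. Prps1, which makes the ribose phosphate that purines are built on, fell from 59.9, 51.2 and 56.1 to 34.3, 33.8, 27.5 and 34.6 CPM (log2 fold change -0.78 ± 0.18, adjusted p = 0.00239).

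Genes of all phases of the cell cycle were higher. DNA replication genes were higher in 18 of 26 cases and lower in none (median 1.51), and mitosis genes in 24 of 26 and none (median 1.66). The DNA replication list gave 1 lower gene with RLE size factors. Cdt1, which loads the replicative helicase, stood at 12.4, 6.67 and 7.58 CPM in the brains and 74.3, 111, 88.7 and 66.9 CPM in the tumors (log2 fold change 3.27 ± 0.42, adjusted p = 3.67e-05). Mcm3, a subunit of that helicase, rose by 2.55 ± 0.34, Cdc45, its activator, by 2.67 ± 0.35, and Gmnn, the inhibitor of Cdt1, by 3.34 ± 0.57. The mitotic kinase gene Cdk1 rose by 2.62 ± 0.47, cyclin B2 (Ccnb2) by 2.5 ± 0.4, the kinesin gene Kif20a by 2.64 ± 0.42 and survivin (Birc5) by 2.32 ± 0.4. Of 15 genes of G1, 9 were higher and 1 lower. Cyclin D1 (Ccnd1) was at 36.9, 38.02 and 35.2 CPM in the brains and 1200.0, 387, 473 and 875 CPM in the tumors (log2 fold change 4.32 ± 0.56, adjusted p = 4.29e-05), highest in Myc 1. The gene that fell was Rb1, the retinoblastoma protein that holds cells in G1, from 84.3, 97.3 and 83.4 to 32.3, 17.3, 25.8 and 31.2 CPM (log2 fold change -1.73 ± 0.28, adjusted p = 0.000214).

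Inhibitors of the cell cycle and Trp53 genes rose with it. Cdkn2a, which encodes the inhibitors p16 and p19Arf, was nearly silent in the brains (0.0556, 0.0679 and 0.0875 CPM) and stood at 48.1, 38.4, 102 and 25.1 CPM in the tumors (log2 fold change 9.53 ± 0.6, adjusted p = 6.52e-07). All tumors were above all brains, and Myc 3 was highest. Its neighbour Cdkn2b rose by 3.71 ± 0.57 and Cdkn1a, which encodes p21, by 2.77 ± 0.49. In all 5 of 8 inhibitors were higher, and Cdkn2d was lower (-1.1 ± 0.35), a call lost without Myc 1 and Myc 2 together. Trp53, the stress sensor that Arf stabilizes, rose from 32.4, 44.9 and 37.4 to 159, 138, 166 and 178 CPM (log2 fold change 2.07 ± 0.25, adjusted p = 2.57e-05). Of Trp53 and its targets 14 of 18 were higher and 0 lower (median 1.89). The target genes Ccng1 (2.98 ± 0.37), Btg2 (4.12 ± 0.55) and Aen (1.58 ± 0.2) were among them. Eda2r, a death receptor, stood at 53.6, 2.71, 81.5 and 96.1 CPM in the tumors, so that Myc 2 lay among the brains (2.99, 2.25 and 1.84 CPM) and the other tumors far above.

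**Figure D2:**
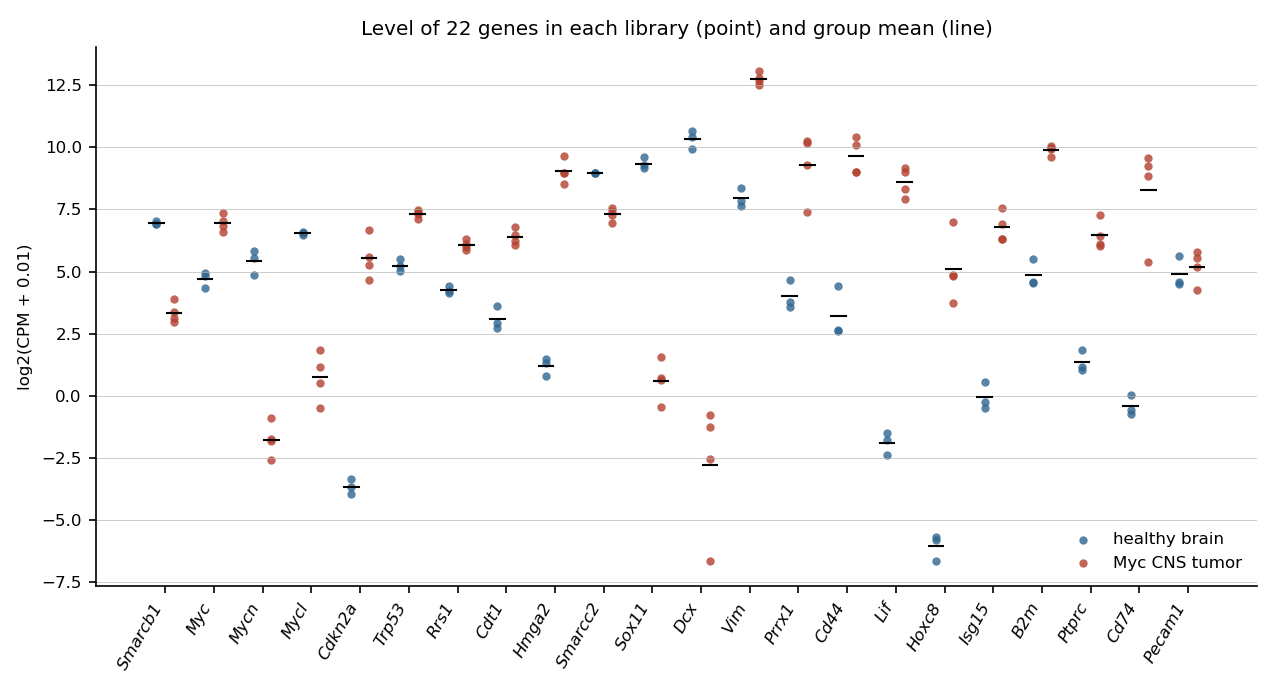
Levels of 22 genes as log2(CPM + 0.01) on the y axis, with 1 point for each of the 3 brain libraries (blue) and 4 Myc CNS tumor libraries (red) and a black line at each group's mean of these log values. For Smarcb1, Mycn, Dcx and Sox11 all brains lie above all tumors, for Myc, Cdkn2a, Hmga2, Lif and B2m all tumors lie above all brains, and the groups overlap for the endothelial gene Pecam1.

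Smarcb1 was not the only SWI/SNF gene with less RNA. Of 30 subunit genes 18 were lower and 4 higher (median -0.96). Smarcc2, a scaffold subunit, stood at 500.3, 497 and 502 CPM in the brains and 174, 122, 155 and 188 CPM in the tumors (log2 fold change -1.64 ± 0.15, adjusted p = 3.57e-06), and Brd9, of the complex form that lacks Smarcb1, at 97.3, 112 and 111 and 29.96, 38.9, 30.8 and 28.6 CPM (log2 fold change -1.74 ± 0.16, adjusted p = 3.92e-06). The brains were tightly grouped and all above the tumors. Subunits found mainly in the complexes of neurons were among them, with log2 fold changes of -9.07 ± 0.83 for Actl6b, -8.01 ± 0.84 for Bcl11a and -3.44 ± 0.33 for Ss18l1. Ss18, the form that dividing cells use in place of Ss18l1, rose from 34.8, 43.5 and 30.8 to 104, 111, 106 and 124 CPM (log2 fold change 1.61 ± 0.22, adjusted p = 5.39e-05) and Smarcd2, another accessory subunit, from 20.8, 16.8 and 14.8 to 58.8, 55.2, 55.96 and 55.5 CPM (log2 fold change 1.69 ± 0.18, adjusted p = 1.22e-05). The other higher genes, Bcl7b and Actl6a, were not called without brain 2, without brain 3 or without Myc 2, and Actl6a was not called without Myc 1, Myc 3 or Myc 4 either.

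Of 23 Polycomb genes, whose products repress developmental genes and oppose SWI/SNF, 5 were higher and 8 lower (median -0.46), where 25.3% and 26.8% of all genes were. Without brain 2 or brain 3 there were 3 higher, and without brain 1 and Myc 1 together 4 lower. The core subunit gene Eed rose (log2 fold change 1.19 ± 0.21, adjusted p = 0.000467), as did Rbbp7 (1.72 ± 0.36), a histone-binding subunit, and Phc2 (1.18 ± 0.26). Mtf2 and Jarid2, accessory subunits of the complex that methylates histone H3, and Phc1 fell with log2 fold changes of -1.47 ± 0.25, -1.91 ± 0.44 and -1.87 ± 0.35. Ezh2, the methyltransferase itself and a drug target in rhabdoid tumors, was at 35.9, 91.1 and 58.2 CPM in the brains and 33.2, 7.72, 40.2 and 28.2 CPM in the tumors and did not pass (log2 fold change -1.18 ± 0.48, adjusted p = 0.0548). It was called lower with DESeq2 (adjusted p = 0.0265) and with limma voom (0.0345), and in edgeR with RLE size factors and without brain 1 or Myc 3. Of 13 genes of DNA methylation 3 were higher and 5 lower. Tet1, an enzyme that removes the mark, fell from 36.3, 64.3 and 54.3 to 3.12, 3.29, 1.53 and 1.24 CPM (log2 fold change -4.51 ± 0.75, adjusted p = 0.00027), and the writer Dnmt3a (-2.53 ± 0.49) fell as well, while Mbd2, a reader of the mark, and Uhrf1, which maintains the mark at replication, rose by 2.31 ± 0.24 and 2.18 ± 0.41. Dnmt3b was at 5.45 to 5.53 CPM in the brains and 5.002 to 11.9 CPM in the tumors and did not pass (adjusted p = 0.539).

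**Figure D3:**
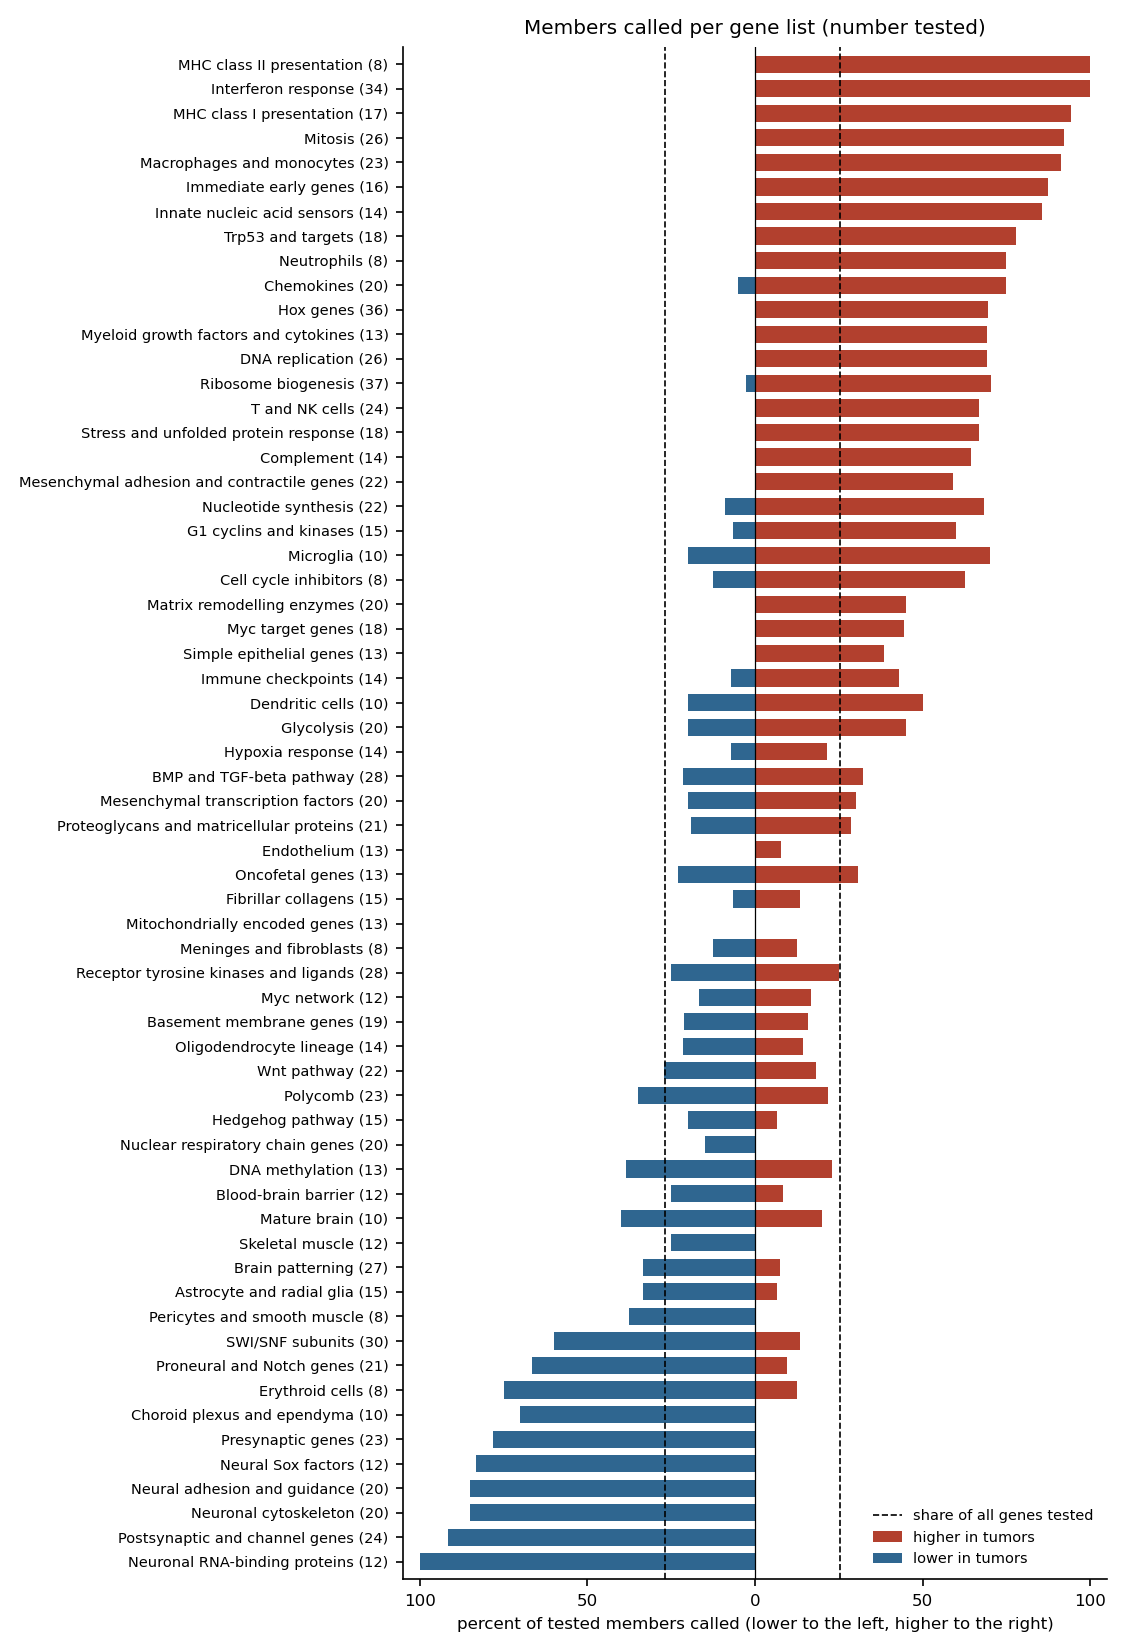
For each of the 62 gene lists with at least 8 tested members (rows, number tested in brackets), the red bar to the right is the percent of members called higher in Myc CNS tumors than in brain and the blue bar to the left the percent called lower. Dashed lines mark the same shares over all 21494 genes, 25.3% and 26.8%. The bars of the interferon response and of MHC class II presentation cover every member on the right, and that of neuronal RNA-binding proteins every member on the left.

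Neuronal genes were lower in each functional class listed. The structural genes of the neuron were lower in 17 of 20 cases (median -6.89), presynaptic genes in 18 of 23 (median -4.19), postsynaptic and channel genes in 22 of 24 (median -6.33), neuronal RNA-binding proteins in 12 of 12 (median -6.35), and adhesion and guidance genes in 17 of 20 (median -4.82). No gene of these lists rose. Tuba1a, the tubulin of growing neurons, stood at 5172, 6304 and 6327 CPM in the brains and 319, 352, 336 and 342 CPM in the tumors (log2 fold change -4.14 ± 0.28, adjusted p = 6.83e-07). Crmp1, a mediator of growth cone collapse, was at 1199.6, 1274 and 1316 and 3.12, 3.02, 3.46 and 3.53 CPM (log2 fold change -8.59 ± 0.77, adjusted p = 3.56e-06). The tau gene Mapt was at 1844, 2309 and 2568 and 3.33, 0.939, 4.05 and 5.44 CPM (log2 fold change -9.33 ± 0.87, adjusted p = 4.36e-06). The 4 tumors lay close together for Tuba1a and Crmp1, and Myc 2 was lowest for Mapt.

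At the synapse the active zone genes Pclo and Bsn fell with log2 fold changes of -7.12 ± 0.71 and -6.53 ± 0.86, the vesicle genes Rab3a and Cplx2 with -4.95 ± 0.6 and -4.19 ± 0.41, and Slc17a6, the vesicular glutamate transporter, with -8.83 ± 1.39. Among receptors, Grin2b (an NMDA receptor subunit) fell with a log2 fold change of -8.12 ± 1.04. Grin2b was at 126, 364 and 384 CPM in the brains, so that brain 1 was the lowest, and at 1.09, 0.417, 0.655 and 1.94 CPM in the tumors. The splicing regulators Elavl3, Elavl4, Rbfox1 and Nova2 fell with log2 fold changes of -8.83 ± 1.0, -6.99 ± 0.73, -7.35 ± 0.84 and -4.66 ± 0.43. L1cam, an axonal adhesion molecule, fell with a log2 fold change of -7.29 ± 0.7, the guidance receptor gene Dcc with -8.83 ± 1.27, Plxna4 with -4.77 ± 0.56 and Robo2 with -6.09 ± 0.69.

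Proneural and Notch genes were lower in 14 of 21 cases and higher in 2 (median -2.97), and neural Sox factors were lower in 10 of 12 (median -3.79). Sox11, a factor of young neurons, stood at 569, 786 and 617 CPM in the brains and 1.53, 0.730, 2.92 and 1.66 CPM in the tumors (log2 fold change -8.56 ± 1.18, adjusted p = 6.46e-05). Sox2, the stem cell factor, was at 84.04, 72.4 and 55.2 CPM in the brains and 18.8, 0.104, 2.05 and 3.35 CPM in the tumors (log2 fold change -3.55 ± 1.0, adjusted p = 0.00889). Myc 1 held the most Sox2, still below the lowest brain. Neurod2 (-9.98 ± 1.27) and the Notch ligand gene Jag2 (-3.35 ± 0.41) fell. The 2 genes that rose were Hes1, a Notch target that many tissues use, from 5.49, 6.22 and 5.98 to 22.03, 22.3, 11.8 and 23.9 CPM (log2 fold change 1.76 ± 0.45, adjusted p = 0.00526), and Notch2, a receptor, from 58.2, 53.3 and 45.3 to 251, 81.03, 186 and 312 CPM (log2 fold change 1.99 ± 0.56, adjusted p = 0.00922). Brain patterning genes were lower in 9 of 27 cases (26.8% of all genes were lower) and higher in 2, and 16 were not called. Tbr1 (cortex), Nkx2-1 (ventral forebrain) and Otx2 (forebrain and midbrain) fell with log2 fold changes of -6.98 ± 0.8, -9.58 ± 1.35 and -9.95 ± 1.52. One of the genes that rose was Egr2 (2.77 ± 0.52), a factor of hindbrain patterning and of immediate early responses.

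Of 15 genes of astrocytes and radial glia 5 were lower and 1 was higher (median -1.67), with 2 or 3 lower without brain 1, Myc 1 or Myc 2. Fabp7, a lipid carrier of radial glia, was at 419, 567 and 591 CPM in the brains and 0.437, 0.261, 4.82 and 13.2 CPM in the tumors (log2 fold change -6.78 ± 1.57, adjusted p = 0.00266), highest in Myc 4. Aldh1l1, an astrocyte enzyme, fell with a log2 fold change of -4.36 ± 0.97. The gene that rose was Vim, the intermediate filament of radial glia and also of mesenchymal cells, at 325, 231 and 200.4 CPM in the brains and 5747, 7069.5, 8470.2 and 6492 CPM in the tumors (log2 fold change 4.79 ± 0.78, adjusted p = 0.000233). Of 14 genes of the oligodendrocyte lineage 2 were higher and 3 lower (median 0.25), where 25.3% and 26.8% of all genes were. The largest change of this list was an increase. Olig1 and Olig2, factors of the lineage, fell with log2 fold changes of -5.7 ± 1.39 and -5.12 ± 1.34. Pdgfra, the receptor of oligodendrocyte precursors and of mesenchymal cells, rose from 91.4, 77.6 and 92.7 to 766, 1511, 329 and 529 CPM (log2 fold change 3.17 ± 0.8, adjusted p = 0.0046). Choroid plexus and ependyma genes were lower in 7 of 10 cases, 4 without brain 1, and Dynlrb2, a dynein light chain of ciliated cells, fell with a log2 fold change of -5.84 ± 1.14. Of 10 genes of mature brain 4 were lower and 2 higher. Their summed level was 232, 202 and 281 CPM in the brains and 25.97, 11.4, 90.01 and 301 CPM in the tumors, highest in Myc 4. The median difference of these genes from the brain mean in log2(CPM + 1) was -0.72, -2.49, -0.45 and -1.13 in Myc 1 to Myc 4, below 0 in each.

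Mesenchymal adhesion and contractile genes were higher in 13 of 22 cases and lower in 0 (median 2.83). Cd44, the hyaluronan receptor, stood at 21.5, 6.09 and 6.28 CPM in the brains and 517, 1358, 518 and 1088 CPM in the tumors (log2 fold change 6.27 ± 0.99, adjusted p = 0.00018). S100a6, a calcium-binding protein, was at 12.1, 3.65 and 3.62 and 1726, 2325, 3606 and 1666 CPM (log2 fold change 8.5 ± 1.23, adjusted p = 9.43e-05). The tumors were above the brains for both, and brain 1 was the highest brain. The integrin genes Itgav and Itgb1 rose by 3.85 ± 0.56 and 2.3 ± 0.32 and the calponin gene Cnn2 by 3.76 ± 0.39. Of 20 mesenchymal transcription factors 6 were higher and 4 lower (median 1.54), shares near those over all genes. The lower genes included the largest change of the list, and they numbered 1 or 2 without brain 2, brain 3 or Myc 3. The factors named next are all among the higher genes. Prrx1, a limb and skull mesenchyme factor, was at 25.6, 13.6 and 11.8 CPM in the brains and 629, 167, 1150.4 and 1208 CPM in the tumors (log2 fold change 5.54 ± 0.94, adjusted p = 0.000295), lowest in Myc 2. Twist1 was at 4.56, 1.32 and 0.978 and 129, 63.7, 172 and 152 CPM (log2 fold change 5.82 ± 1.17, adjusted p = 0.00106), again lowest in Myc 2. Runx2, the bone factor, and Runx1, the blood factor, rose by 3.94 ± 0.89 and 3.17 ± 0.81, and brain 1 held more of both (15.9 and 8.72 CPM) than the other brains. The part of the other tissues in brain 1 in these values was not tested.

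Matrix remodelling enzymes were higher in 9 of 20 cases and lower in 0 (median 2.37), with 1 lower without Myc 1. The urokinase receptor gene Plaur stood at 2.69, 0.592 and 0.700 CPM in the brains and 144, 188, 111 and 184 CPM in the tumors (log2 fold change 6.88 ± 1.06, adjusted p = 0.000151). Urokinase itself, Plau, was at 38.05, 1539, 1363 and 80.2 CPM in the tumors, high in Myc 2 and Myc 3 and far lower in the others (log2 fold change 9.18 ± 1.71, adjusted p = 0.000605). Timp1, an inhibitor of metalloproteinases, rose by 8.82 ± 1.76. Of 15 fibrillar collagen genes only 2 were higher and 1 lower, and their summed level was 5656, 960.0 and 699.6 CPM in the brains and 5342, 3359, 12596 and 17876 CPM in the tumors. Without brain 1 there were 4 higher and 0 lower, and without brain 2, brain 3 or Myc 3 only 1 was higher. Col5a2 rose from 191, 58.9 and 44.98 to 1194, 1567, 1548 and 3233 CPM (log2 fold change 4.26 ± 0.87, adjusted p = 0.00112). Of proteoglycans and matricellular proteins 6 of 21 were higher and 4 lower, where 25.3% and 26.8% of all genes were. Of them 3 were higher without brain 2 or brain 3 and 2 lower without Myc 2. Sparc and Tgfbi rose by 2.05 ± 0.54 and 4.05 ± 0.8, and the brain proteoglycan gene Bcan fell with a log2 fold change of -5.59 ± 1.02. Of 19 basement membrane genes 3 were higher, 4 were lower and 12 were not called, shares below those over all genes. Hspg2 and Lamb2 were among the higher genes and rose by 3.29 ± 0.73 and 2.5 ± 0.44. Agrn, which organizes synapses, was among the lower ones. It fell from 795, 794 and 836 to 140.5, 145, 177 and 164 CPM (log2 fold change -2.37 ± 0.25, adjusted p = 9.54e-06).

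Simple epithelial genes were called higher in 5 of 13 cases. None of these calls remained without brain 2 or without brain 3. The keratin genes Krt8 and Krt18 were at 0.493 to 2.60 and 0.724 to 6.04 CPM in the brains and at 12.6, 834, 48.7 and 839 and 50.8, 629, 216 and 1229 CPM in the tumors, highest in Myc 2 and Myc 4. They rose by 8.38 ± 2.64 and 7.59 ± 2.34 (adjusted p = 0.0165 and 0.0146). Without brain 2 the adjusted p was 0.061 and 0.0569, and without brain 3 0.0626 and 0.0574.

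Of 13 oncofetal genes 4 were higher and 3 lower, near the shares over all genes (25.3% and 26.8%), with 2 higher without brain 2 or brain 3. Hmga2, a chromatin protein of fetal tissue, stood at 2.49, 2.81 and 1.74 CPM in the brains and 506, 794, 504 and 371 CPM in the tumors (log2 fold change 7.85 ± 1.7, adjusted p = 0.00172), and Hmga1 at 64.6, 41.99 and 46.1 and 413, 604, 396 and 346 CPM (log2 fold change 3.11 ± 0.61, adjusted p = 0.000844). All tumors were above all brains. Lin28b, which blocks the let-7 microRNAs that repress Hmga2, fell from 67.1, 40.4 and 50.7 to 0.273, 3.02, 3.15 and 0.344 CPM (log2 fold change -4.95 ± 1.07, adjusted p = 0.00174), and the imprinted gene Peg3 from 673, 419 and 384 to 20.8, 14.4, 20.7 and 27.9 CPM (log2 fold change -4.55 ± 0.54, adjusted p = 2.1e-05). Igf2, the fetal growth factor, was at 911, 435 and 386 CPM in the brains and 420.4, 30.04, 716 and 2153 CPM in the tumors and did not pass (adjusted p = 0.758). Nor did its neighbour H19 (adjusted p = 0.886), Igf2bp1 (1.04, 141, 7.73 and 79.8 CPM, adjusted p = 0.332) or the telomerase gene Tert (7.38, 8.97, 11.7 and 11.5 CPM against 2.49, 15.8 and 10.7 CPM, adjusted p = 0.972). Igf2bp1 was high in Myc 2 and Myc 4 alone.

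Hox genes, which mark position along the trunk and are silent in the forebrain, were higher in 25 of 36 tested cases (of 39 in the list) and lower in 0, with 1 lower without Myc 1. The median was 7.2, or 6.86 with the 5 genes that had no counts in brain set at their bound. Hoxc6 stood at 0.00794, 0.0194 and 0 CPM in the brains and 3.72, 15.4, 29.8 and 41.5 CPM in the tumors (log2 fold change 11.05 ± 1.17, adjusted p = 1.01e-05). Hoxc9 had no count in any brain and 0.273, 4.07, 7.94 and 6.14 CPM in the tumors, at least 544.7-fold higher. Myc 1 had the least of both. Hoxb4, of another cluster, was at 2.95, 31.7, 9.68 and 2.41 CPM in the tumors and highest in Myc 2 (log2 fold change 6.77 ± 1.41, adjusted p = 0.00131). The sources used here do not give the part of the nervous system each tumor came from, so position and tumor cannot be told apart.

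The lists of 3 signalling pathways held genes of both directions, and no difference between the pathways was tested. Their counts are read against the shares over all genes, 25.3% higher and 26.8% lower. Of 15 Hedgehog genes, the pathway that names the other CNS subtype, 3 were lower and 1 was higher (median -1.36). The higher gene, Smo, lost its call without brain 2, brain 3, Myc 1 or Myc 4. The ciliary receptor gene Gpr161 fell with a log2 fold change of -2.69 ± 0.73, and Ptch1 fell from 94.9, 81.8 and 58.6 to 28.3, 23.3, 31.02 and 24.5 CPM (adjusted p = 0.0156, 0.0507 without brain 1). The effectors Gli1 (10.3, 0.626, 7.85 and 3.87 CPM) and Gli2 (13.99, 0.886, 0.646 and 1.78 CPM) did not pass (adjusted p = 0.146 and 0.372), and Myc 1 was highest for both. Without Myc 1 Gli2 was called lower. In the Wnt list 4 of 22 were higher, 1 without brain 3, and 6 lower. The receptor gene Fzd2 rose by 2.36 ± 0.47 and the ligand gene Wnt7a fell with a log2 fold change of -5.83 ± 1.46. Of 28 BMP and TGF-beta genes 9 were higher and 6 lower. The ligand gene Tgfb1 and its receptor gene Tgfbr2 rose by 3.64 ± 0.51 and 2.79 ± 0.59, the feedback inhibitor gene Smad7 by 2.81 ± 0.49, and Tgfb2 and Id4 fell with log2 fold changes of -3.74 ± 0.91 and -5.15 ± 1.05.

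Of 28 receptor tyrosine kinases and ligands 7 were higher and 7 lower, near the shares over all genes (25.3% and 26.8%). Axl, a receptor of mesenchymal cells and macrophages, stood at 63.5, 25.9 and 25.7 CPM in the brains and 778, 739.5, 621 and 619.6 CPM in the tumors (log2 fold change 4.17 ± 0.51, adjusted p = 2.83e-05). Egfr, the receptor that Ereg binds, was at 36.1, 33.2 and 40.9 and 314, 503, 278 and 188 CPM (log2 fold change 3.13 ± 0.61, adjusted p = 0.000893), and Fgfr1 rose by 2.88 ± 0.67. All tumors were above all brains for these genes. The neural receptor genes Erbb4, Ntrk3 and Ntrk2 fell with log2 fold changes of -7.24 ± 0.67, -6.4 ± 0.85 and -4.62 ± 1.17. Kit, a receptor of melanocytes, blood cells and some neurons, fell with a log2 fold change of -3.8 ± 0.86.

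All 34 interferon response genes were higher, with a median log2 fold change of 5.08, where 25.3% of all genes were higher. Isg15, a ubiquitin-like modifier, stood at 0.707, 0.835 and 1.48 CPM in the brains and 78.7, 121, 189.7 and 79.5 CPM in the tumors (log2 fold change 6.86 ± 0.74, adjusted p = 1.11e-05). Ifit3, which binds viral RNA with its relatives and has a near-identical copy, was at 1.52, 1.29 and 1.30 and 75.9, 73.4, 101 and 57.6 CPM (log2 fold change 5.81 ± 1.05, adjusted p = 5e-04). B2m, the small invariant subunit of MHC class I molecules, was at 45.1, 22.96 and 23.9 and 997, 983, 1072 and 779 CPM (log2 fold change 4.96 ± 0.45, adjusted p = 3.57e-06). Every tumor was above every brain. The core of the interferon-stimulated response element was searched in the promoter windows, on both strands, as GAAA, any 2 bases and GAAA again. It occurred in 3.99% of all genes with a window, 3.89% of the tested ones, 6.29% of those higher and 3.2% of those lower. Among genes with a window, 17 of 25 interferon response genes (68.0%) and 5 of 14 MHC class I genes (35.7%) held it. Isg15, Ifit3 and B2m were picked after the search to show it, with the 250 bases before each start on the gene's strand and the element in capitals.
Isg15: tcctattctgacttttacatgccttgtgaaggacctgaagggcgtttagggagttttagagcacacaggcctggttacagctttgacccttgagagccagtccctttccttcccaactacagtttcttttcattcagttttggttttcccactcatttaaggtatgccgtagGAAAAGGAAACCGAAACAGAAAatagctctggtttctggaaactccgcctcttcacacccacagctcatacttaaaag
Ifit3: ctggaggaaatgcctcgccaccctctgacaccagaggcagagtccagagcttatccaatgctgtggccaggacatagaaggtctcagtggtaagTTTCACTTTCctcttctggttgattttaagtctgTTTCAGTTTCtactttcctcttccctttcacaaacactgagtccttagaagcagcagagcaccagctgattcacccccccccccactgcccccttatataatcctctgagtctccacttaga
B2m: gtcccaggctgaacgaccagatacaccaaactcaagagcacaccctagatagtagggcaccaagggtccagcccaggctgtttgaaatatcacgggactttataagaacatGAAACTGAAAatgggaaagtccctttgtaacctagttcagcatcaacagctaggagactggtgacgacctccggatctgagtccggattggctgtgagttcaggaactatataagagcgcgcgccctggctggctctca
The Isg15 window is chr4:156200819-156201068 (minus strand), with 3 overlapping matches that begin 78, 72 and 66 bases before the start. The Ifit3 window is chr19:34583279-34583528, with 2 matches, 156 and 122 bases before the start, read from the other strand, so that TTTC stands in place of GAAA. The B2m window is chr2:122147437-122147686, with 1 match 139 bases before the start.

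Other interferon response genes with small adjusted p were Parp14 (5.18 ± 0.41), an ADP-ribosyltransferase, Gbp2 (6.48 ± 0.64), a GTPase, Bst2 (6.4 ± 0.65), which tethers viruses to the cell, and Ifi35 (4.79 ± 0.51). Bst2 was at 241, 248, 479 and 232 CPM in the tumors, highest in Myc 3. The chemokine gene Cxcl10 had the largest fold, at 0.270, 0.0873 and 0.0954 CPM in the brains and 74.1, 74.2, 31.1 and 388 CPM in the tumors, highest in Myc 4 (log2 fold change 9.85 ± 1.82, adjusted p = 0.000583). Sensors of nucleic acids were higher in 12 of 14 cases (median 3.86). Cgas, the DNA sensor, stood at 1.10, 1.15 and 0.915 CPM in the brains and 19.2, 13.5, 21.7 and 20.4 CPM in the tumors (log2 fold change 4.15 ± 0.32, adjusted p = 1.6e-06). The RNA sensors Ddx58 and Dhx58 rose by 3.72 ± 0.39 and 4.77 ± 0.42, their adaptor Mavs by 3.07 ± 0.32 and the kinase gene Eif2ak2 by 2.99 ± 0.28. Of the 8 genes of interferons and their receptors 6 were tested and 3 were higher, the receptor genes Ifngr1 (2.55 ± 0.31), Ifnar2 (1.5 ± 0.21) and Ifnlr1 (2.51 ± 0.77). The call of Ifnlr1 was lost without brain 3. Ifnb1 and Ifna4 were too low to test.

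Antigen presentation genes were higher as well. MHC class I genes were higher in 16 of 17 cases (median 4.03). Psmb8, a subunit of the immunoproteasome, stood at 1.52, 0.922 and 1.30 CPM in the brains and 63.3, 73.9, 77.2 and 50.9 CPM in the tumors (log2 fold change 5.73 ± 0.35, adjusted p = 4.66e-07). The peptide transporter gene Tap1 rose by 3.54 ± 0.34, Psmb9 by 5.32 ± 0.56 and H2-K1, whose reads can be shared with other H2 genes, by 5.6 ± 0.58. MHC class II genes were higher in 8 of 8 cases (median 7.06). Cd74, the invariant chain, was at 1.01, 0.602 and 0.660 CPM in the brains and 753, 456, 42.4 and 610.0 CPM in the tumors (log2 fold change 9.26 ± 1.62, adjusted p = 0.000385). Myc 3 was more than 10-fold below the other tumors. Ctss, the protease that trims it, was at 19.8, 7.65 and 8.89 and 1102, 728, 342 and 509 CPM (log2 fold change 5.79 ± 0.64, adjusted p = 1.36e-05).

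Markers of immune cells stood beside these changes. Ptprc, the common leukocyte antigen, was at 3.59, 2.24 and 2.08 CPM in the brains and 157, 65.5, 69.3 and 85.5 CPM in the tumors (log2 fold change 5.16 ± 0.51, adjusted p = 7.03e-06). Macrophage and monocyte genes were higher in 21 of 23 cases (median 4.84), and their summed level was 706, 303 and 354 CPM in the brains and 11279, 5536, 3933 and 4342 CPM in the tumors. Myc 1 held the most. Itgam, an integrin of myeloid cells, stood at 0.913, 0.708 and 0.859 CPM in the brains and 96.9, 45.7, 37.1 and 27.9 CPM in the tumors (log2 fold change 5.97 ± 0.64, adjusted p = 1.08e-05). Lyz2, lysozyme, which has a close copy, rose by 8.15 ± 1.07, Fcgr1 by 5.7 ± 0.79 and Ms4a7 by 6.37 ± 0.77. The part of leukocytes in the interferon and antigen presentation genes was not tested. The summed interferon response was 147, 135 and 131 CPM in the brains and 2646, 2645, 3641 and 3175 CPM in the tumors, highest in Myc 3. The MHC class II sum was 29.3, 15.3 and 18.5 CPM in the brains and 2899, 1773, 501 and 2053 CPM in the tumors, highest in Myc 1 and lowest in Myc 3, as the macrophage sum was.

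Microglia genes were higher in 7 of 10 cases and lower in 2 (median 2.62), 3 higher without brain 1 and Myc 1 together. Olfml3 rose from 19.5, 10.4 and 8.37 to 521, 321, 765 and 666 CPM (log2 fold change 5.48 ± 0.55, adjusted p = 7.53e-06). Sall1, the factor of microglial identity and of some progenitors, fell from 24.4, 37.9 and 29.9 to 0.437, 7.98, 2.08 and 1.66 CPM (log2 fold change -3.35 ± 0.8, adjusted p = 0.00331). Dendritic cell genes were higher in 5 of 10 cases, 3 without brain 2 or brain 3, and lower in 2. Of the higher genes, Itgax was at 43.2, 20.2, 5.53 and 24.9 CPM in the tumors against 0.341, 0.311 and 0.215 CPM in the brains. Irf8, also higher, rose by 4.0 ± 0.59. Neutrophil genes were higher in 6 of 8, 2 without brain 2 or brain 3. Their defining gene Ly6g was near 0 in every library, at 0.00794, 0 and 0.0159 CPM in the brains and 0, 0.209, 0.140 and 0.374 CPM in the tumors (log2 fold change 4.23 ± 1.01, adjusted p = 0.00329), and Myc 1 had no count of it. Csf3r, the receptor for G-CSF, rose by 4.03 ± 0.73. B cell genes were low, 2 of 7 higher and 1 lower, and no higher call remained without brain 2, brain 3 or Myc 4. The lower gene was Pax5, a B cell factor that also patterns the midbrain (-7.21 ± 1.09). Erythroid genes were lower in 6 of 8 cases and higher in 1, which had the largest change of the list. Hbb-bs, adult beta globin with a close copy, was at 475, 277 and 127 CPM in the brains and 1.59, 5.997, 3.36 and 27.3 CPM in the tumors (log2 fold change -4.93 ± 1.1, adjusted p = 0.0021).

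T and NK cell genes were higher in 16 of 24 cases (median 4.68), from low levels. Cd4 was at 0.326, 0.281 and 0.422 CPM in the brains and 5.19, 1.30, 3.90 and 3.92 CPM in the tumors (log2 fold change 3.38 ± 0.58, adjusted p = 0.000356), and Cd3d, a subunit of the T cell receptor, at 0, 0.00971 and 0.0159 and 1.91, 0.209, 0.157 and 1.06 CPM (log2 fold change 6.3 ± 1.34, adjusted p = 0.00153). Klrk1, the NK receptor NKG2D, had no count in any brain and 2.90, 0.209, 2.44 and 1.84 CPM in the tumors, at least 218.1-fold higher. Myc 2 was lowest for Cd4 and Klrk1. Gzmb, granzyme B, was at 3.94, 0.313, 17.2 and 0.658 CPM and the granzyme genes Gzmc and Gzmf at 21.7, 1.09, 76.3 and 0.359 and 21.4, 0.782, 185 and 0.0149 CPM, all highest in Myc 3. The brains held 0.00795 to 0.0159, 0.0159 to 0.0388 and 0.00794 to 0.0291 CPM of them, so that Myc 4 lay within the brains' range for Gzmf. Granzyme genes have close copies, so their values are uncertain. Gzmg had no count in any brain, and its mean in the tumors was at least 3250-fold higher than the floor, set by Myc 3 with 105.1 CPM against 4.43, 0.417 and 0.0299 CPM in Myc 1, Myc 2 and Myc 4. Immune checkpoint genes were higher in 6 of 14 cases and lower in 1. The checkpoint ligand gene Cd274 (PD-L1) stood at 0.850, 2.59 and 1.81 CPM in the brains and 20.3, 116, 27.6 and 24.98 CPM in the tumors (log2 fold change 4.75 ± 0.72, adjusted p = 0.000131), with Myc 2 at the top. Its receptor gene Pdcd1 was at 4.10, 0.0521, 1.41 and 2.69 CPM in the tumors, lowest in Myc 2, and Vsir and Havcr2 rose by 4.62 ± 0.51 and 4.22 ± 0.76.

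Genes of signals between these cells were also higher. Of 20 chemokine and receptor genes 15 were higher and 1 lower (median 6.13), and the lower one, Cx3cl1, lost its call without any 1 library other than Myc 3. Ccl2, which draws monocytes, was at 0.437, 0.146 and 0.0716 CPM in the brains and 65.1, 8.60, 102 and 325 CPM in the tumors (log2 fold change 9.15 ± 1.34, adjusted p = 0.000105), and its low value was in Myc 2. Cxcl16 rose by 6.69 ± 0.76, and the receptor gene Ccr1 by 5.85 ± 0.74. Myeloid growth factors and cytokines were higher in 9 of 13 cases, among them Il1b (7.65 ± 1.23), Tnf (5.65 ± 0.93), Osm (4.04 ± 0.76) and Csf3 (6.21 ± 1.08). Complement genes were higher in 9 of 14 cases (median 4.52). C1qa, made by macrophages, was at 14.3, 7.54 and 8.59 CPM in the brains and 769.5, 409, 275 and 252 CPM in the tumors (log2 fold change 5.39 ± 0.75, adjusted p = 7.06e-05), and the receptor genes C3ar1 and C5ar1 rose by 5.38 ± 0.67 and 6.69 ± 0.91. C1s1, a protease made also by mesenchymal cells, was at 502, 168, 29.7 and 635 CPM, lowest in Myc 3.

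Few vessel genes were called, where 25.3% of all genes were higher and 26.8% lower. Of 13 endothelial genes 1 was higher and 0 lower (median -0.06), with 1 lower without Myc 1. Their summed level was 394, 331 and 295 CPM in the brains and 481, 397, 270.0 and 397 CPM in the tumors, so the groups overlapped. The higher gene was Emcn, endomucin, from 10.01, 5.97 and 4.55 to 39.9, 18.3, 13.4 and 18.97 CPM (log2 fold change 1.73 ± 0.42, adjusted p = 0.00362). Pecam1 was at 49.2, 24.2 and 22.7 CPM in the brains and 55.1, 19.2, 46.4 and 36.1 CPM in the tumors (adjusted p = 0.711). Blood-brain barrier genes were higher in 1 and lower in 3 of 12 cases, 0 and 1 without brain 2 or brain 3. The barrier transporter gene Slco1c1, also found in astrocytes, fell from 108, 40.5 and 55.9 to 0.711, 0, 0.655 and 2.5 CPM (log2 fold change -6.1 ± 1.45, adjusted p = 0.00319). Pericyte and smooth muscle genes were lower in 3 of 8, 1 without Myc 1 and Myc 2 together, and Vtn fell with a log2 fold change of -3.41 ± 0.88. Of 8 meningeal and fibroblast genes 6 were not called. The 1 higher gene, Ogn, rose by 3.86 ± 0.84, and the 1 lower gene, Slc6a13, fell with a log2 fold change of -5.68 ± 1.1.

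Immediate early genes were higher in 14 of 16 cases (median 2.79), with Junb at 12, 2.14 and 2.36 CPM in the brains and 256, 355, 103 and 102 CPM in the tumors (log2 fold change 5.21 ± 0.81, adjusted p = 0.000167), Jun rising by 2.85 ± 0.5 and Ier2 by 2.82 ± 0.34. Stress and unfolded protein genes were higher in 12 of 18 (median 1.62). The chaperone gene Hspa5 rose by 1.73 ± 0.23, Hmox1, which breaks down heme, by 4.76 ± 0.88, Txnrd1 by 2.15 ± 0.41 and Hspa1b, which has a near-identical copy, by 5.46 ± 0.88. These lists also respond to handling of tissue before RNA extraction, and their part in the difference was not tested. Glycolysis genes were higher in 9 and lower in 4 of 20 cases, 4 higher without brain 2 or brain 3 and 5 without Myc 2. Pkm and Ldha, which end the pathway, rose by 1.89 ± 0.31 and 1.43 ± 0.33, and the phosphofructokinase genes Pfkm and Pfkp fell with log2 fold changes of -1.78 ± 0.35 and -2.76 ± 0.61. Of 14 hypoxia genes 3 were higher and 1 lower (median -0.28), below the shares over all genes (25.3% and 26.8%). Only 1 was higher without brain 1, brain 2, brain 3 or Myc 2. P4ha1, 1 of the higher genes, rose by 2.43 ± 0.52. None of the 13 mitochondrially encoded genes was called (2 were higher without Myc 2), and 3 of 20 nuclear genes of the respiratory chain were lower, among them Ndufs4 (-0.75 ± 0.17) and Cox7a2 (-0.87 ± 0.23).

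**Figure D4:**
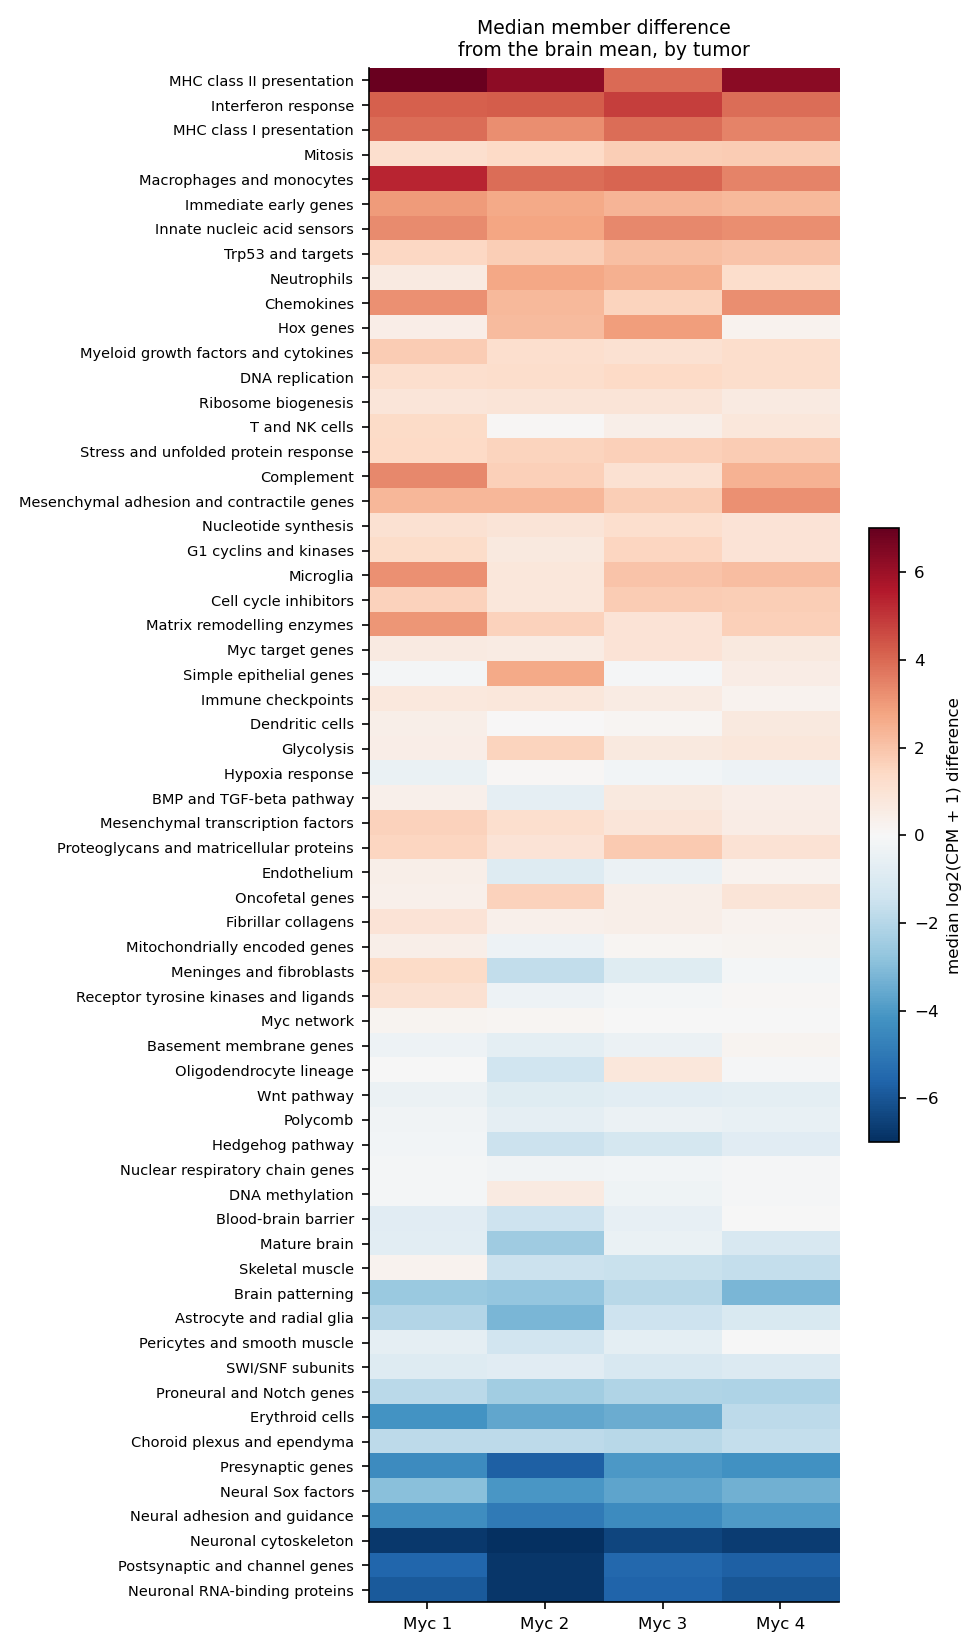
Rows are the gene lists with at least 8 tested members and columns the 4 Myc CNS tumors. Color gives the median, over the members, of log2(CPM + 1) in that tumor minus its mean in the 3 brains (red higher, blue lower). Neuronal lists are blue and interferon, MHC class I and macrophage lists red in every tumor, while Hox genes and simple epithelial genes differ from tumor to tumor.

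The lists were also compared tumor by tumor. The median difference from the brain mean in log2(CPM + 1) was 4.16, 4.26, 4.87 and 3.88 for interferon response genes, -6.73, -7.26, -6.44 and -6.64 for the neuronal cytoskeleton and 0.83, 0.91, 0.92 and 0.65 for ribosome biogenesis in Myc 1 to Myc 4. For Hox genes it was 0.46, 2.24, 2.92 and 0.25, and for simple epithelial genes -0.13, 2.65, -0.08 and 0.53. Of the 12 genes with the widest spread between the tumors (SD of log2 CPM, among genes with a mean of at least 10 CPM in the tumors), Ddx3y, Eif2s3y, Kdm5d and Uty lie on the Y chromosome and had counts in Myc 3 and Myc 4 and none in Myc 1 and Myc 2. By the level of Ddx3y, Myc 1, Myc 2, brain 3 and every SHH tumor were female. Myc 3, Myc 4, brain 1 and brain 2 were male. Among the Myc tumors the females were also the shallowest libraries, so sex and depth cannot be told apart there. Krt20, a keratin of gut and bladder, was at 0.219, 0.104, 921 and 0.120 CPM and Slc5a7, the choline transporter of cholinergic neurons, at 2.13, 0, 229 and 0.404 CPM, so both were high in Myc 3 alone. Krt20 was called higher than brain, but without Myc 3 it was not (adjusted p = 0.743), nor without brain 2 or brain 3. Plet1, a gene of placenta and epithelial progenitors, was at 0, 29.4, 0.0960 and 43.3 CPM and, as Psg22, was high in Myc 2 and Myc 4. Cpa1, a pancreatic carboxypeptidase, was at 0.164, 0, 0.0175 and 84.7 CPM and Mab21l1 at 10.4, 0, 5.71 and 217 CPM, both highest in Myc 4. These are descriptions of single tumors, with no test.

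The differences from brain were set beside those from the SHH CNS tumors (n = 3), which share the organ and the Smarcb1 genotype. The 2 comparisons share the Myc tumors, so their values are given side by side and not correlated. Against SHH tumors 8789 genes (40.9%) differed, 4087 higher (19%) and 4702 lower (21.9%). Myc was at 12.3 ± 6.97 CPM in SHH tumors (log2 fold change 3.37 ± 0.4, adjusted p = 6.12e-05), Mycn at 121 ± 115 CPM (log2 fold change -8.53 ± 0.83, adjusted p = 1.96e-05) and Smarcb1 at 14 ± 16.8 CPM (log2 fold change -0.42 ± 0.62, adjusted p = 0.605). Myc tumors were thus above SHH tumors in Myc and below them in Mycn, with no call for Smarcb1. Ribosome biogenesis genes were higher in 24 of 37 cases (median 0.81), interferon response genes in 31 of 34 (median 3.67), MHC class I genes in 17 of 17 and macrophage genes in 19 of 23 (median 2.79). Mitosis genes were higher in 6 of 26 (median 0.64, against 1.66 from brain). Neuronal cytoskeleton genes were lower in 15 of 20 (median -5.28) and Hedgehog genes in 8 of 15 (median -1.87). Ptch1 was at 343 ± 131 CPM in SHH tumors (log2 fold change -3.68 ± 0.51, adjusted p = 0.000166) and Gli1 at 46.5 ± 24.7 CPM (log2 fold change -3.04 ± 0.8, adjusted p = 0.00837). Of 14 oligodendrocyte lineage genes 9 were lower and 1 higher against SHH tumors, and 3 were lower and 2 higher against brain.

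The number of genes called between the Myc tumors and the extracranial tumors (n = 4) depended on the method. edgeR called 4 genes higher (0.0186%) and 0 lower, while 3387 genes had an unadjusted p under 0.05, DESeq2 called 758 higher and 491 lower, and limma voom called 0 in each direction. No list had a member called by edgeR. Myc was at 135 ± 46.97 CPM in extracranial tumors (log2 fold change -0.09 ± 0.32, adjusted p = 0.93), Cdkn2a at 27.96 ± 8.63 CPM (log2 fold change 0.94 ± 0.36, adjusted p = 0.234) and Hmga2 at 139 ± 181 CPM (log2 fold change 1.97 ± 1.14, adjusted p = 0.417). The list medians were 0.16 for ribosome biogenesis, 0.00 for the interferon response, -0.46 for macrophages and 0.99 for the neuronal cytoskeleton. Of the 4 called genes Pcsk1n, a secreted protein of neurons and endocrine cells, was at 1.86, 25.5, 25.4 and 4.80 CPM in Myc tumors and 0.0403 ± 0.0410 CPM in extracranial tumors (log2 fold change 8.74 ± 1.19, adjusted p = 0.0328), and at 189.7, 91.3 and 110.5 CPM in the brains. Ttc39a was at 9.46, 5.89, 12.3 and 35.3 and 0.612 ± 0.257 CPM (log2 fold change 4.67 ± 0.67, adjusted p = 0.0328). Ttc39aos1 and Gm42141, named for completeness, had the same adjusted p. Ttc39aos1 is annotated as an antisense gene next to Ttc39a. Without extracranial tumor 1 or 4 no gene was called higher, and without extracranial tumor 2 71 were higher and 23 lower. A p that misses the threshold does not show that the 2 groups are alike.

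**Figure D5:**
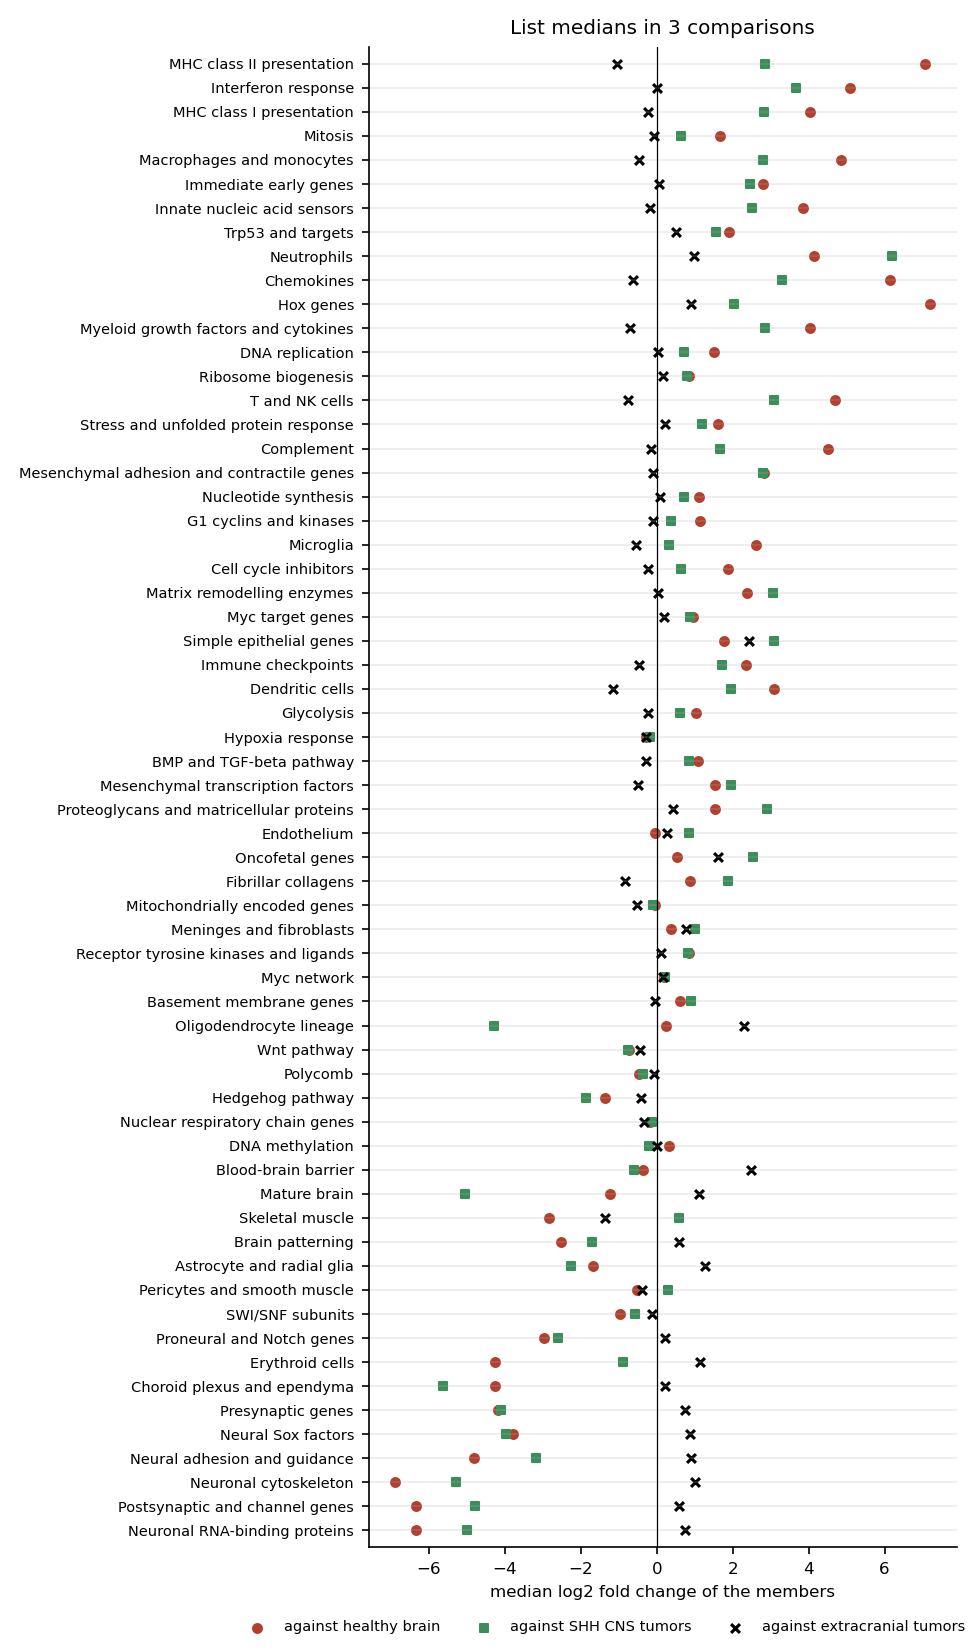
Median log2 fold change of the tested members of each list (rows) in Myc CNS tumors minus healthy brain (red circles), minus SHH CNS tumors (green squares) and minus extracranial tumors (black crosses), which share the 4 Myc tumors. The interferon response lies at 5.08, 3.67 and 0.00 and the neuronal cytoskeleton at -6.89, -5.28 and 0.99.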

How the data were processed

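Polyadenylated RNA of 7 libraries (4 Myc CNS tumors, 3 healthy brains) was compared. The authors deposited 1 table of raw counts per gene and library. Reads were aligned with STAR 2.5.3a to mm10, per the submitters' processing notes, and libraries were Illumina TruSeq Stranded mRNA, per the labels' protocols. The counting tool and its strand setting are not given in the sources used here. Each table held 50600 Ensembl IDs, of which 50376 matched GENCODE M21 without the version number.

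All 17 libraries entered 1 edgeR 4.0.16 fit in R 4.3.3 with group means as the design, TMM scaling, filterByExpr with a minimum count of 10, and the robust quasi-likelihood test. Genes with a Benjamini-Hochberg adjusted p under 0.05 were called. The 21494 genes tested held 99.96% of counts. Standard errors were taken from the log2 fold change and its F statistic. DESeq2 1.42.0 and limma 3.58.1 (voom with quality weights) were alternatives, as were RLE size factors, other count filters, a replicate block, sex as a covariate and leaving out libraries. Figures were drawn with matplotlib 3.10.9.

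The groups and the 66 gene lists were chosen with earlier results of these data known. The genes named are the 15 largest changes in each direction with at least 10 CPM and no overlap, the 5 members of each list with the smallest adjusted p in each direction, the largest change and those against the list's majority, a set of fixed genes and the 12 most variable genes in the tumors. Nop2, Imp4 and Ifit3 (for their promoters), Pecam1, Gm42141 and Ttc39aos1 were chosen after their values were seen. The p-values rest on 1 estimate of spread per gene over all 17 libraries. The median SD of log2 CPM was 0.66 among the Myc tumors and 0.32 among the brains. Myc 1 and Myc 2 held the fewest counts, and genes with few counts are less precise there.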

Additional observations from a re-analysis of the deposited data

Results flagged for a closer look

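In the 4 Myc tumors a gene or summed list is given here when its highest or lowest tumor stands apart from the other 3 by Dixon's ratio (above 0.829). Of 260 genes named 13 met this (5%), and of 66 summed lists 4 (6.06%). For normally distributed values that were not selected, chance alone gives about 1 in 20. Some of the genes, Krt20 and Cpa1 among them, were named because they vary widely between these same tumors. The shares can therefore not be judged against that rate. No cause was tested.

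Myc 1 stood above the others for the lysozyme gene Lyz2 (2370.0 CPM against 593 to 687), for the cytokine gene Tnf (4.21 against 1.19 to 1.42) and for the summed pituitary genes (192.7 against 0.417 to 1.40). The neuronal factor Nhlh2 stood at 0.0547 CPM in Myc 1, a single count, against 0 in the others, so that any count would have set Myc 1 apart. Myc 1 was lowest for Uhrf1, which maintains DNA methylation (74.0 CPM against 113 to 120). Myc 2 was lowest for the laminin gene Lamb2 (136 CPM against 386 to 448.0), the G-CSF receptor gene Csf3r (10.1 against 25.9 to 31.3), the summed postsynaptic and channel genes (107 against 308 to 359.6) and the summed melanocyte genes (4.85 against 11.5 to 12.1). Myc 3 was highest for the virus-tethering gene Bst2 (479 CPM against 232 to 248) and the keratin gene Krt20 (921 against 0.104 to 0.219). It was lowest for the Notch target Hes1 (11.8 against 22.03 to 23.9), for Pfkp of glycolysis (33.3 against 57.0 to 61.6), for Prps1 of purine synthesis (27.5 against 33.8 to 34.6) and for the summed myeloid growth factors and cytokines (420.1 against 1017 to 1185). Myc 4 was highest for the butyrophilin gene Btn1a1 (1526 CPM against 44.6 to 65.8) and the pancreatic enzyme gene Cpa1 (84.7 against 0 to 0.164).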

How the results depend on the processing

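Against brain the counts of 5445 higher and 5771 lower genes stayed within 1.5 times under each alternative run. With 1 library left out they were 3967 to 5328 and 4793 to 5602, with DESeq2 5920 and 6423, with voom 6727 and 7463, and with RLE size factors, which moved the median of all genes by -0.06, 5215 and 5979. The called genes kept under an alternative were 77.3% to 98.6% of the main ones. Against SHH tumors the counts stayed within 1.5 times as well. Against extracranial tumors the 4 higher genes became 10 with RLE, 758 with DESeq2, 0 with voom, 0 with the compared groups only and 0 with the replicate block, and 0 to 71 with 1 library left out (29 without Myc 1, 47 without Myc 2, 71 without extracranial tumor 2). The 0 lower genes became 491 with DESeq2, 1 with sex as a covariate and 0 to 23 with 1 library left out. The cause was not tested. Library numbers did not pair the samples (correlations of deviations 0.067, -0.174 and 0.061). With the number as a replicate block 4967 genes were higher and 5425 lower than brain, and 3732 and 4003 against SHH tumors. Of the 242 genes named that were called, 229 kept their call under every alternative. With the block 5 of 242 (Actl6a, Cx3cl1, Krt20, Psg22 and Rrn3) lost their call, and with DESeq2 0 of 238. Without brain 3 10 of 242 lost it, and without brain 2 8 of 242. The log2 fold change of Krt20 was -0.43 (without Myc 3) to 10.74 (without brain 1) with 1 library left out. List counts with single libraries left out were added after seeing the data.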
